A study of Homo sapiens with 4 samples.

Results

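The proteasome genes of A549 cells were compared between knockdown of the long non-coding RNA SBF2-AS1 and control. Members were the gene symbols of the count table that start with PSMA, PSMB, PSMC, PSMD, PSME, PSMF or PSMG and a digit, without those that end in P and a number, -AS1 or -IT1. The rule gave 55 of 40205 symbols. Of these, 48 name proteins of the proteasome or of its assembly. The other 7 do not: PSMC3IP encodes a cofactor of homologous recombination, PSMD6-AS2 is an antisense RNA, and PSMD12P, PSMA3P, PSMA7P, PSMB3P and PSMC3P carry pseudogene names. Enough counts for testing were held by 49 of the 55 symbols, 46 of them among the 48.

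A549 is a human lung adenocarcinoma line of epithelial origin. In 2 libraries (Knockdown-670 and Knockdown-732) the cells had received siRNA to SBF2-AS1, and in 2 (controls 1 and 2) a negative control siRNA; all were transfected with Lipofectamine iMAX, harvested after 24 h and sequenced on the Ion Proton. Neither the numbers in the names of the knockdown libraries nor a separate culture for each library is explained by the labels. The p-values therefore speak only of the spread among these 4 libraries, and that spread could be technical.

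The proteasome is the protease that breaks down proteins tagged with ubiquitin. Its core particle is a stack of rings: outer rings of alpha subunits, which gate the entrance, and inner rings of beta subunits, of which PSMB5, PSMB6 and PSMB7 carry the cutting sites. Cells exposed to interferon make PSMB8, PSMB9 and PSMB10, which take the places of PSMB5, PSMB6 and PSMB7 in newly built particles and shift the cuts towards peptides that fit MHC class I; blood cells make them without stimulation. The core is capped by a regulatory particle of ATPases (PSMC genes) and non-ATPase subunits (PSMD genes), or by activators (PSME genes).

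Interferon-stimulated factors bind DNA at the interferon-stimulated response element, searched here as 2 copies of GAAA with any 2 bases between them, on both strands, from 250 bases before to 50 bases after each start site. Promoter windows of 42 of the 48 proteasome genes were in the RefSeq table of GRCh38.p14, and 7 genes (16.7%) held the motif, against 4.38% of the 27305 genes in the table. These 7 sites are shown with that of TAP1, the head-to-head neighbour of PSMB9, because they set side by side the inducible genes and the others that share the letters. Each line gives 30 bases, 5′ to 3′ in the direction of the gene, with the motif in capitals.

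PSMB8, chr6:32844032-32844061, minus strand: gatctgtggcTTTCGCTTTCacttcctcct
PSMB10, chr16:67936852-67936881, minus strand: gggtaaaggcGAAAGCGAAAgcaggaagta
PSME1, chr14:24136189-24136218, plus strand: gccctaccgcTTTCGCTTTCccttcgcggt
PSME2, chr14:24146619-24146648, minus strand: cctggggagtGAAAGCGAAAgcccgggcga
PSMG4, chr6:3258904-3258933, plus strand: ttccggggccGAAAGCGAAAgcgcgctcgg
PSMA4, chr15:78540155-78540184, plus strand: atagtgaagaGAAAATGAAAggagagcgcc
PSMB4, chr1:151399495-151399524, plus strand: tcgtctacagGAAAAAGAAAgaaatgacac
TAP1, chr6:32853816-32853845, minus strand: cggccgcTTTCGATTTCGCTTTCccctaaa

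PSMB8, PSMB10, PSME1, PSME2 and PSMG4 held the same 10 letters, GAAAGCGAAA, read on one strand or the other, within 50 bases of the start site. The PSMB8 site belongs to the second of its annotated starts. The PSMB9 window held no match. Its start lies 488 bases from that of TAP1 on the opposite strand, and the TAP1 sites lie 354 to 369 bases before the start of PSMB9. Of the 7 genes with a match, 3 were higher in the knockdown (PSMB8, PSME1 and PSME2), 1 was lower (PSMA4) and 3 were not called (PSMB10, PSMB4 and PSMG4). Of 33 tested genes with a window and no match, 4 were higher, 18 lower and 11 not called. Among all 16120 genes tested, 23.5% were higher and 22.8% lower, and these shares were not computed for all genes with the motif. The search was added with the members' values known, and a link between match and call was not tested. A match is a description of the letters in this window only.

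**Figure D1:**
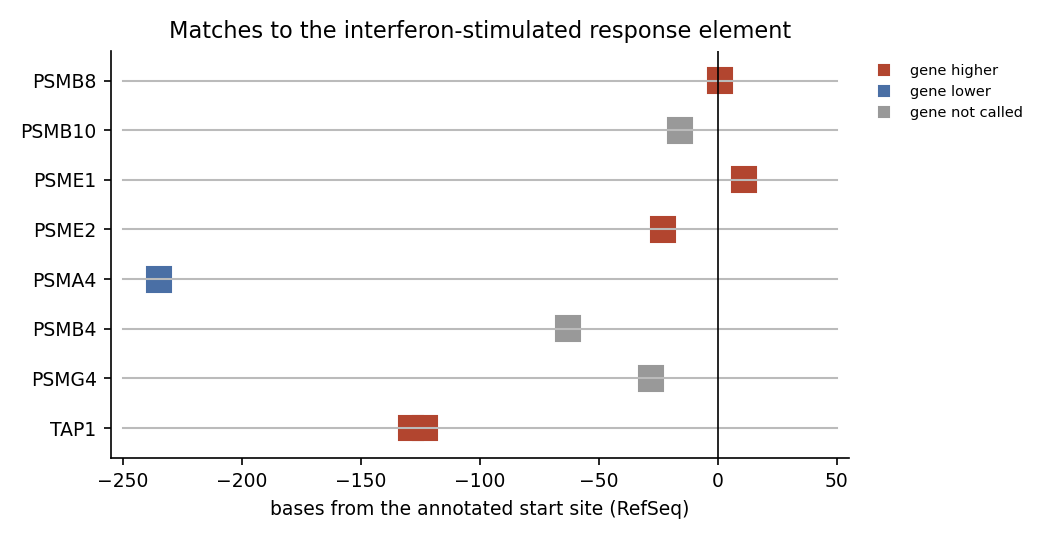
Positions of the response-element letters (boxes) around the annotated start sites of 7 proteasome genes and TAP1. The horizontal axis gives bases from the start site; the box colour gives the call of the gene in the knockdown against control. The sites of PSMB8, PSMB10, PSME1, PSME2 and PSMG4 lie within 50 bases of the start, and the site of PSMA4 lies farthest before it.

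The libraries held 12149767 and 12894529 counts in the knockdown and 12701132 and 12938143 in the controls. SBF2-AS1 itself was at 1.27 and 1.42 CPM (counts scaled to a common library size, with TMM factors) in the knockdown, against 4.41 and 5.97 CPM in the controls (log2 fold change -1.94, edgeR adjusted p = 3.19e-05). All 6 epithelial markers had counts, with summed levels of 5750 and 5335 CPM in the knockdown and 6925 and 6962 CPM in the controls. They did not move as 1 group: KRT18 (log2 -0.86), EPCAM (-0.56) and KRT8 (-0.40) fell, KRT19 (1.06) rose, and CDH1 and KRT7 were not called. The 12 blood cell markers summed to 19.95 and 18.2 CPM in the knockdown and 18.9 and 15.6 CPM in the controls; CD3E, MS4A1, HLA-DRA and NKG7 were at 0 in every library, and PTPRC had 1 count in all 4 libraries together. Among those markers LCP1, an actin-bundling protein of blood cells and some carcinomas, rose to 3.40 and 1.89 CPM, against 0.155 and 0.378 CPM in the controls (edgeR adjusted p = 6e-05), and most of the sum came from CD14 and ITGAM, which were not called. Since these are bulk samples, fewer cells of a type and less RNA per cell cannot be told apart.

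Under SBF2-AS1 siRNA, 8 of the 49 tested members were higher, 22 were lower and 19 were not called in edgeR's quasi-likelihood test. Of all genes, 46.3% of the 16120 tested genes were called, 23.5% higher and 22.8% lower, so the share of members that rose (16.3%) lay below the background and the share that fell (44.9%) above it. The genes that rose were PSMB9, PSME1, PSME2, PSMF1, PSMB8, PSMD9, PSMB7 and PSMA6. Most members that fell were standing subunits of the core and the regulatory particle, and most of their falls were small. Over all 46 tested proteasome proteins, called or not, the median log2 fold change was -0.19, beside -0.002 over all genes tested. Together the 55 symbols took 0.457 and 0.450% of the counts in the knockdown libraries and 0.527 and 0.499% in the controls. Counts and shares moved with the method. DESeq2 called 5 members higher (10.2%, against 16.9% of all genes) and 16 lower (32.7%, against 16.1%). Tested against a 1.2-fold change, 4 were higher (8.16%, against 15.2% of all genes) and 6 lower (12.2%, against 13.8%), so the share that fell no longer lay above the background. After a correction for GC content and transcript length, 12 of 48 tested were higher (25%, against 22.4% of all genes) and 16 lower (33.3%, against 23.1%), so the share that rose no longer lay below it.

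**Figure D2:**
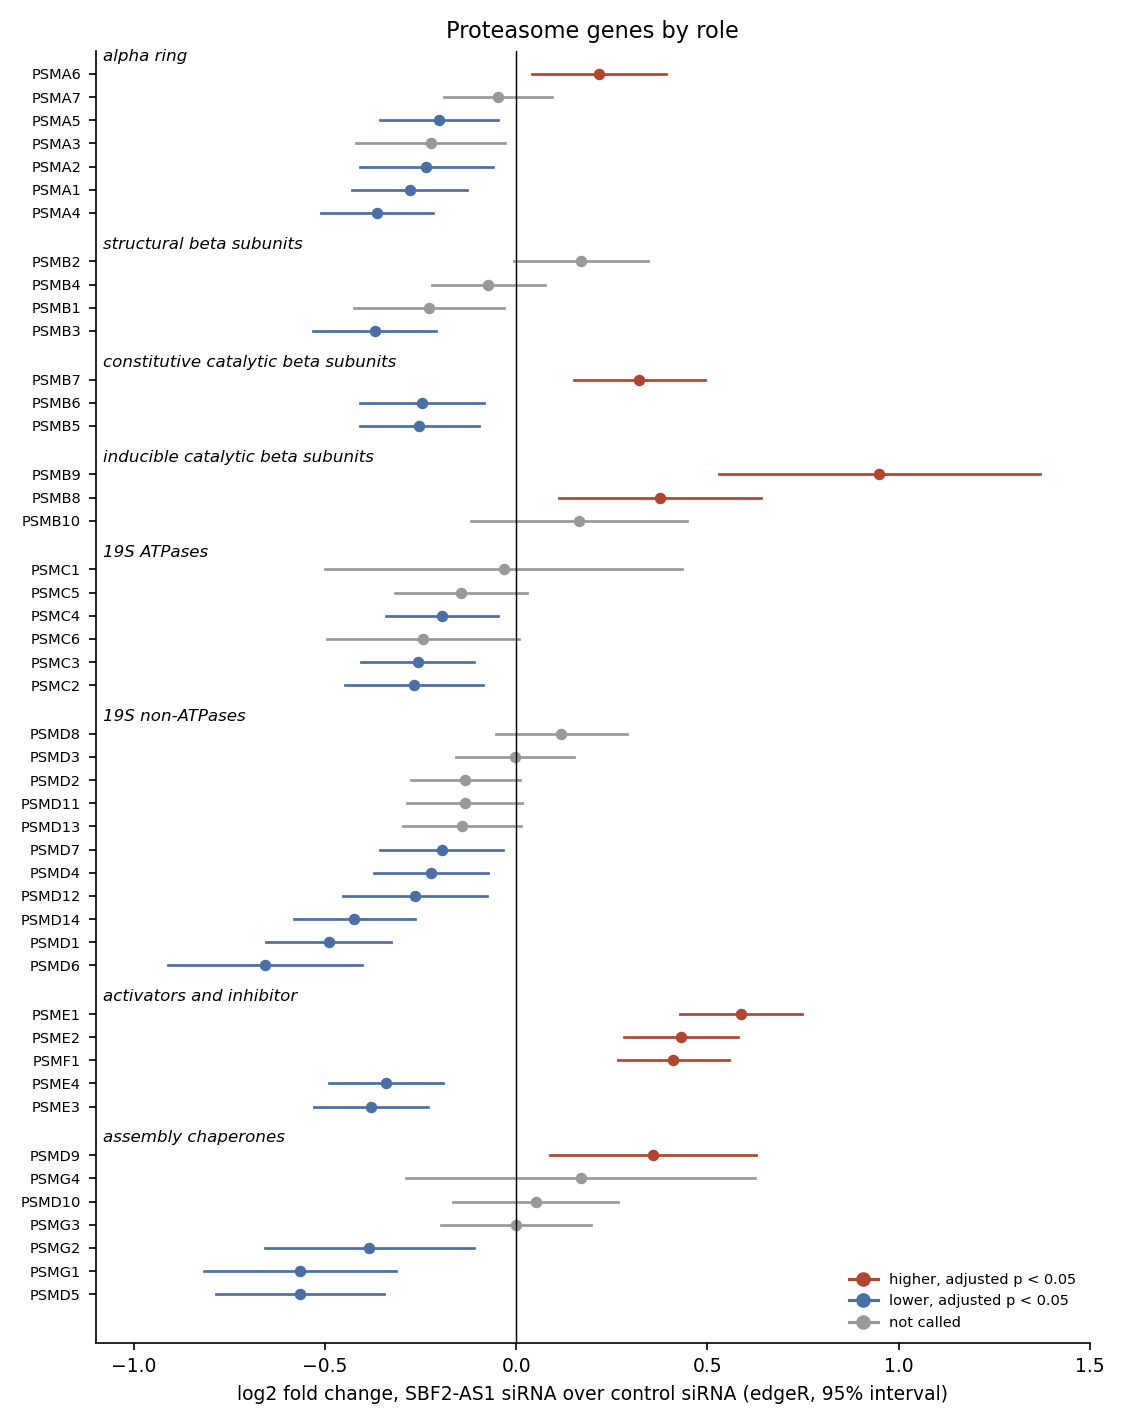
Log2 fold changes of the 46 tested proteasome genes, grouped by role, with 95% intervals (edgeR, 2 libraries per group). Points right of 0 were higher under SBF2-AS1 siRNA; colours give the call at an adjusted p of 0.05. The inducible subunits and the activators PSME1 and PSME2 lie on the right, and most standing subunits lie between -0.4 and 0.

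The inducible catalytic subunits were scarce in both groups. PSMB9, which replaces PSMB6, stood at 13.3 and 10.1 CPM in the knockdown, against 7.11 and 4.99 CPM in the controls. The groups did not overlap, as for 72.6% of all genes tested, so separate groups are the usual case here. PSMB9 rose by 0.95 on the log2 scale (SE 0.20, edgeR adjusted p = 0.000781), or 1.93-fold, and was called under each alternative setting. PSMB8, which replaces PSMB5, stood at 23.6 and 21.7 CPM in the knockdown, against 17.8 and 17.1 CPM in the controls. This was a rise of 0.38 on the log2 scale (SE 0.13, edgeR adjusted p = 0.0203). It lost its call in DESeq2 (adjusted p = 0.101), against a 1.2-fold change, and when either control library or Knockdown-670 was left out (edgeR adjusted p = 0.0524, 0.100 and 0.121 in that order). PSMB10, which replaces PSMB7, had 16.4 and 18.2 CPM in the knockdown and 15.7 and 15.2 CPM in the controls, and was not called. Its log2 fold change was 0.16 (95% interval -0.12 to 0.45, edgeR adjusted p = 0.339), so a rise of the size of PSMB8's lies inside the interval and one of the size of PSMB9's does not. PSMB11, the thymus subunit, had 0 and 1 counts in the knockdown and 0 and 0 in the controls.

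The 3 constitutive partners did not move together. PSMB5, the chymotrypsin-like subunit, had 131 and 121 CPM in the knockdown, against 157 and 145 CPM in the controls (log2 -0.25, SE 0.07, edgeR adjusted p = 0.00889). PSMB6, the caspase-like subunit, had 162 and 152 CPM in the knockdown, against 199 and 173 CPM in the controls (log2 -0.25, edgeR adjusted p = 0.0134). Both groups were separate for each gene, but the fall of PSMB5 was not called without control 1 (edgeR adjusted p = 0.0701) or without Knockdown-732 (0.0862), and that of PSMB6 likewise (0.176 and 0.0768). PSMB7, the trypsin-like subunit, moved the other way, with 137 and 131 CPM in the knockdown and 116 and 97.9 CPM in the controls (log2 0.32, edgeR adjusted p = 0.00343), a call lost without control 2 (edgeR adjusted p = 0.0689). Against a 1.2-fold change none of the 3 was called (edgeR adjusted p = 0.498 for PSMB5, 0.533 for PSMB6 and 0.218 for PSMB7).

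**Figure D3:**
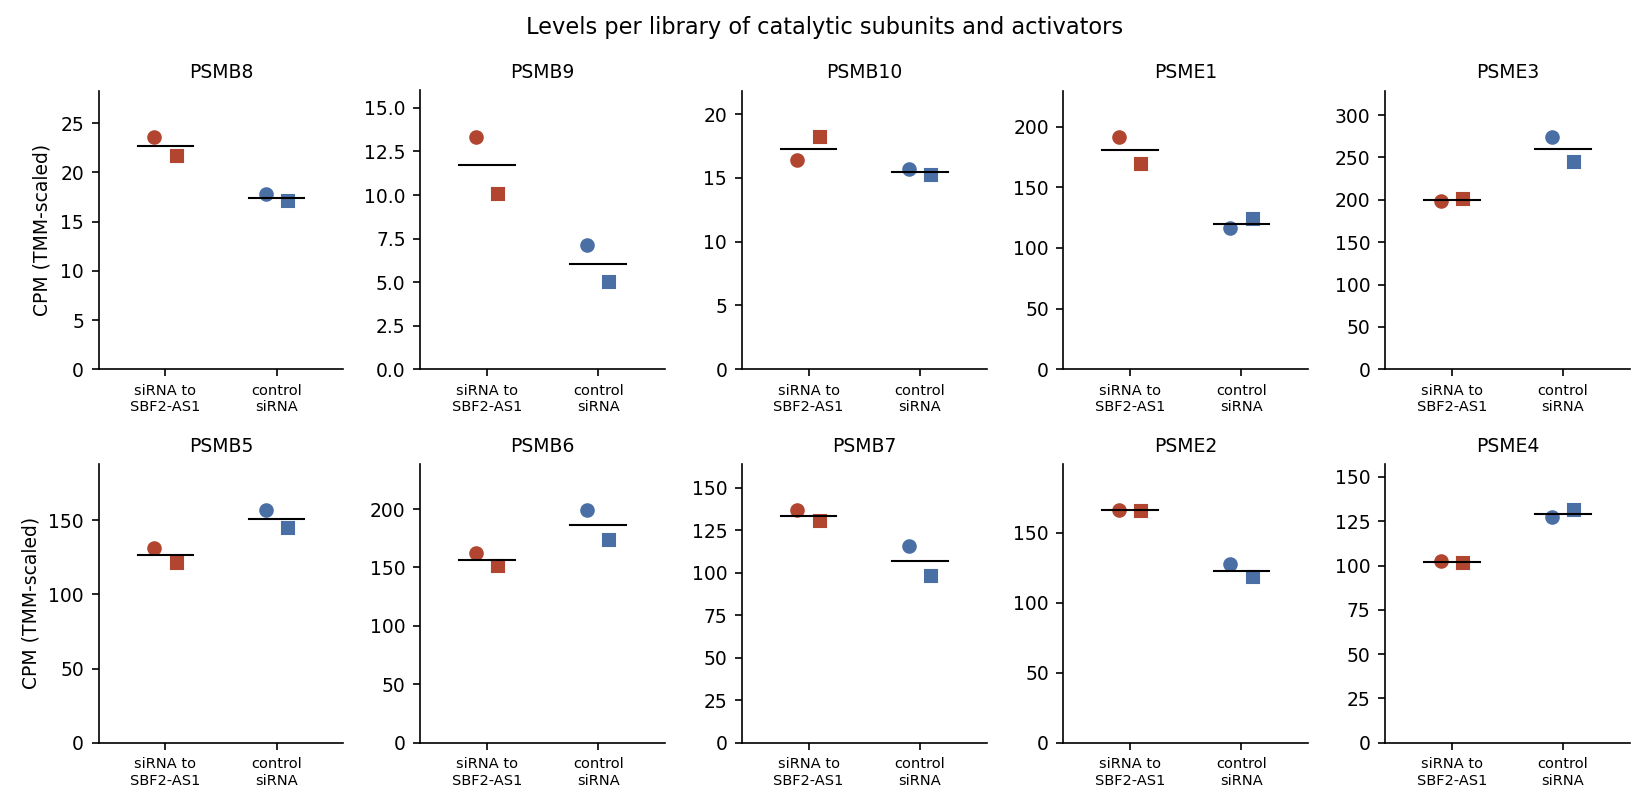
Level of each catalytic subunit and activator in every library, in CPM on axes that start at 0; circles are Knockdown-670 and control 1, squares are Knockdown-732 and control 2, and bars are group means. The knockdown libraries lie above the controls for PSMB8, PSMB9, PSMB10, PSMB7, PSME1 and PSME2 and below them for PSMB5, PSMB6, PSME3 and PSME4.

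A ratio of 2 genes within a library does not depend on how libraries are scaled. On levels per kilobase of merged exons, PSMB8 made up 14.5 and 14.4% of the PSMB8 and PSMB5 transcripts together in the knockdown, against 9.69 and 10.04% in the controls. PSMB9 made up 7.22 and 5.93% of its pair with PSMB6 in the knockdown, against 3.28 and 2.65% in the controls. The share of PSMB10 beside PSMB7 was 8.80 and 10.07% in the knockdown and 9.81 and 11.09% in the controls, and here the groups overlapped. The ratio to the partner was thus 1.55-fold higher for PSMB8, 2.30-fold higher for PSMB9 and 0.892-fold for PSMB10. With 2 libraries a group the exact two-sided permutation test cannot go below p = 0.333, which is the value for PSMB8 and PSMB9; it was 0.667 for PSMB10. In each library the constitutive subunit remained the more abundant transcript of its pair.

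**Figure D4:**
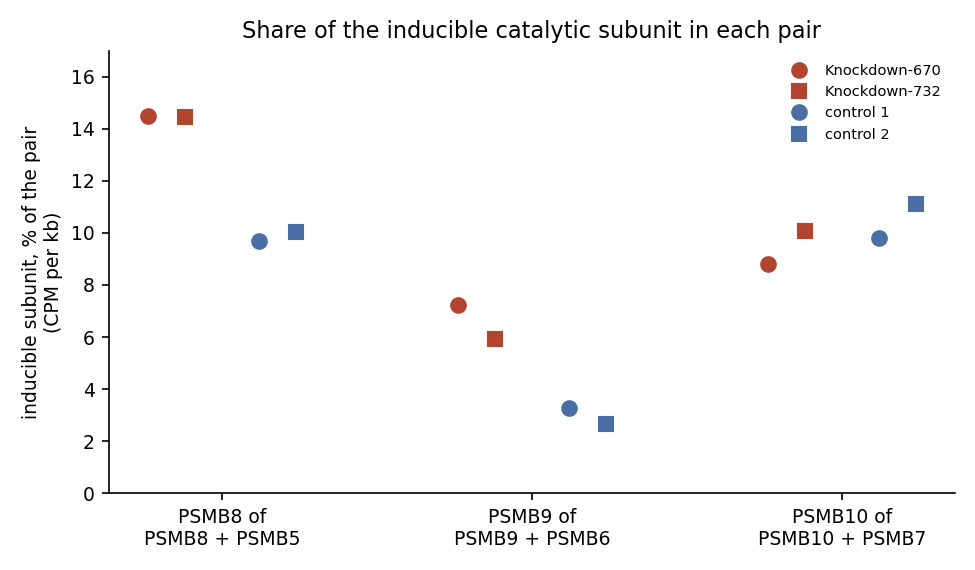
Share of the inducible subunit in the transcripts of each catalytic pair, per library, from CPM per kilobase. The knockdown libraries lie above both controls for PSMB8 and PSMB9, and the groups overlap for PSMB10.

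Activators and the inhibitor split in 2 directions. PSME1 and PSME2 form the interferon-inducible activator ring that opens the core without ATP. PSME1 had 191 and 169 CPM in the knockdown, against 117 and 123 CPM in the controls (log2 0.59, SE 0.08, edgeR adjusted p = 4.76e-06). PSME2 had 166 and 166 CPM in the knockdown, against 128 and 118 CPM in the controls (log2 0.43, SE 0.07, edgeR adjusted p = 7.05e-05). PSME1 and PSME2 rose in each alternative setting, as did PSMF1, which binds the core and inhibits it in vitro; PSMF1 had 223 and 216 CPM in the knockdown and 160 and 170 CPM in the controls (log2 0.41, edgeR adjusted p = 8.22e-05).

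PSME3 and PSME4 fell, though neither was called against a 1.2-fold change (edgeR adjusted p = 0.0576 and 0.132 in that order). PSME3 forms the nuclear activator ring, and had 198 and 201 CPM in the knockdown, against 274 and 245 CPM in the controls (log2 -0.38, edgeR adjusted p = 0.000268). PSME4, a large single-chain activator linked to histone turnover, had 103 and 101 CPM in the knockdown, against 127 and 131 CPM in the controls (log2 -0.34, edgeR adjusted p = 0.000676). No library of either group crossed into the other for these 5 genes, as for 72.6% of all genes tested. On levels per kilobase, the ratio of PSME1 to PSME3 was 3.56 and 3.11 in the knockdown and 1.57 and 1.86 in the controls, and that of PSME2 to PSME3 was 2.53 and 2.50 in the knockdown and 1.41 and 1.46 in the controls (exact permutation p = 0.333 for each, the smallest possible).

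In the alpha ring 4 of 7 tested genes fell, 1 rose and 2 were not called. Among all genes tested, 22.8% fell and 23.5% rose. The median of the 7 alpha genes was -0.22 on the log2 scale. The number that fell was 2 in DESeq2 and 0 against a 1.2-fold change, beside 16.1% and 13.8% of all genes. It was also smaller without control 1 and without Knockdown-670. After the GC and length correction 1 fell and 2 rose, beside 23.1% and 22.4% of all genes. PSMA4 fell most, with 130 and 138 CPM in the knockdown and 174 and 170 CPM in the controls (log2 -0.36, edgeR adjusted p = 0.00033). PSMA1 followed at -0.28 and PSMA2 at -0.23 on the log2 scale, and PSMA5, the fourth that fell, was at -0.20. PSMA3 (-0.22) and PSMA7 (-0.05) were not called. PSMA6 rose, with 125 and 106 CPM in the knockdown and 96.3 and 102 CPM in the controls (log2 0.22, edgeR adjusted p = 0.0413). Its call ended in DESeq2, limma-voom, with library size only, against a 1.2-fold change and without control 1 or Knockdown-670, and also when the counts of its pseudogenes were added (log2 0.18, edgeR adjusted p = 0.0768). PSMA8, the testis subunit, had 0 counts in each library, which allows up to 0.227 to 0.255 CPM per library; this limit covers counting error only.

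The 4 structural beta subunits build the inner rings without cutting. PSMB3 fell, with 144 and 142 CPM in the knockdown and 199 and 172 CPM in the controls (log2 -0.37, edgeR adjusted p = 0.000608). PSMB1 (log2 -0.23), PSMB4 (-0.07) and PSMB2 (0.17) were not called.

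Of the 6 ATPases, which unfold the substrate and feed it into the core, 3 fell and none rose. Among all genes tested, 22.8% fell and 23.5% rose. The median of the 6 was -0.22 on the log2 scale. PSMC2 had 59.0 and 51.9 CPM in the knockdown, against 66.5 and 66.9 CPM in the controls (log2 -0.27, edgeR adjusted p = 0.0162). PSMC3 was at -0.26 and PSMC4, the most abundant member per kilobase in the controls (279 CPM per kilobase; 244 in the knockdown), at -0.19. PSMC5 (-0.15), PSMC6 (-0.24) and PSMC1 (-0.03) were not called. With library size only 5 of the 6 were lower. In that setting the median over all genes was itself at -0.065, and the 5 have no matching share of all genes here. Against a 1.2-fold change 0 of the 6 were lower, beside 13.8% of all genes. In DESeq2 and with the correction for GC content and length 2 were lower, beside 16.1% and 23.1% of all genes.

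The values of PSMC1 and PSMC6 are uncertain because of close copies. The pseudogene PSMC1P1 held 566 and 577 counts in the knockdown and 649 and 648 in the controls, where PSMC1 itself held 79 and 68 counts in the knockdown and 95 and 66 in the controls. PSMC6P1 held 295 and 329 counts in the knockdown and 419 and 420 in the controls, beside 251 and 310 in the knockdown and 354 and 355 in the controls for PSMC6. Summed with its pseudogenes, PSMC1 averaged 53.7 CPM in the knockdown and 56.6 CPM in the controls and was still not called (edgeR adjusted p = 0.495). PSMC6 became lower, at -0.29 on the log2 scale (edgeR adjusted p = 0.00933).

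Of the 11 non-ATPase subunits of the regulatory particle, 6 fell and none rose. Among all genes tested, 22.8% fell and 23.5% rose. The median of the 11 was -0.20 on the log2 scale. PSMD6, a scaffold subunit of the lid, had 25.3 and 20.9 CPM in the knockdown, against 38.7 and 34.0 CPM in the controls (log2 -0.66, SE 0.12, edgeR adjusted p = 0.000212). PSMD1, the large scaffold of the base, had 69.5 and 77.3 CPM in the knockdown, against 105 and 102 CPM in the controls (log2 -0.49, SE 0.08, edgeR adjusted p = 5.01e-05). PSMD14, the deubiquitinase that removes ubiquitin chains at the lid, had 85.4 and 88.9 CPM in the knockdown, against 121 and 112 CPM in the controls (log2 -0.42, edgeR adjusted p = 0.000149). For these 3 genes each knockdown library lay below both controls, where the groups did not overlap for 72.6% of all genes tested.

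PSMD12 (log2 -0.26), the ubiquitin receptor PSMD4 (-0.22) and PSMD7 (-0.20), the partner of PSMD14, fell less. PSMD13 (-0.14), PSMD11 (-0.13), the scaffold PSMD2 (-0.13), PSMD3 (-0.003) and PSMD8 (0.12) were not called. The number of these subunits that fell was 3 when tested against a 1.2-fold change, beside 13.8% of all genes. It was also smaller without Knockdown-670. Without Knockdown-732, PSMD8 was higher (log2 0.24).

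Taking the 31 tested standing subunits of core and regulatory particle together, 16 fell and 2 rose, beside 22.8% and 23.5% of all genes tested. Their summed level was 3584 and 3473 CPM in the knockdown, against 4089 and 3808 CPM in the controls. Groups did not overlap for 27 of the 31, 24 below and 3 above, beside 72.6% of all genes tested whose groups did not overlap. Against a 1.2-fold change 3 of the 31 were lower and 0 higher, beside 13.8% and 15.2% of all genes. DESeq2 called 11 lower and 1 higher, beside 16.1% and 16.9% of all genes. The median log2 fold change of -0.22 was -0.15 without control 1 and -0.27 without control 2. With the correction for GC content and length it was -0.03, with 5 higher and 10 lower. Of all genes, 22.4% were higher and 23.1% lower there. In that setting PSMD6 (log2 -0.22, edgeR adjusted p = 0.127) was not called and PSMD14 was higher (0.18, edgeR adjusted p = 0.0336), while PSMD1 (-0.34), PSMB3 (-0.38) and PSMA4 (-0.22) were still lower. Across the 31, log2 fold change had a Pearson correlation of 0.28 with transcript GC content and of -0.006 with log2 length. With GC content the correlation was 0.33 across the 46 tested proteasome genes and 0.31 across 14700 tested genes with annotation. Median GC content was 47.5% in the 31 and 48.5% in the 14700. Genes are not independent replicates, and the parts of GC content and of length in the result were not tested.

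Assembly chaperones build the particle and leave it. PSMG1, which with PSMG2 starts the alpha ring, had 21.7 and 19.2 CPM in the knockdown, against 31.4 and 29.2 CPM in the controls (log2 -0.56, SE 0.12, edgeR adjusted p = 0.000778). PSMG2 had 17.6 and 19.9 CPM in the knockdown, against 22.5 and 26.4 CPM in the controls (log2 -0.38, edgeR adjusted p = 0.0219). The members of the second alpha-ring pair, PSMG3 (log2 -0.0006) and PSMG4 (0.17), were not called. PSMG3 has a gene named as its antisense partner, PSMG3-AS1, with 363 and 412 counts in the knockdown and 258 and 261 in the controls, and PSMD5 likewise has PSMD5-AS1, with 227 and 271 counts in the knockdown and 300 and 267 in the controls. Whether counting used strand is not stated, and without strand the reads of such partners cannot be told apart.

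Chaperones of the base split as well. PSMD5 had 31.8 and 40.1 CPM in the knockdown, against 52.4 and 54.2 CPM in the controls (log2 -0.57, edgeR adjusted p = 0.000228). PSMD9 rose, with 33.9 and 27.7 CPM in the knockdown and 21.8 and 26.1 CPM in the controls (log2 0.36, edgeR adjusted p = 0.0295), a call lost in DESeq2, with library size only, against a 1.2-fold change, and without control 1 or Knockdown-670. PSMD10, also known as gankyrin, was not called (log2 0.05).

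Among the 7 symbols that are not proteasome proteins, PSMC3IP had the largest change of all 49 tested members. It stood at 6.45 and 5.75 CPM in the knockdown, against 21.9 and 24.6 CPM in the controls (log2 -1.93, SE 0.15, edgeR adjusted p = 9.15e-09), and it fell in each alternative setting. PSMC3P (log2 -0.61, edgeR adjusted p = 0.164) and PSMD12P (-0.11, 0.778) were not called. The other 4 symbols were too scarce to test, with at most 11 counts in a library for PSMD6-AS2 and at most 5 for PSMB3P, and 0 in each library for PSMA7P.

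Each knockdown library was also set against both controls. Knockdown-670 had 9 members higher and 14 lower, where 42.0% of all genes were called, and Knockdown-732 had 5 higher and 16 lower, where 40.2% were called; in these comparisons the residual spread comes from the control pair alone, and the controls are shared. The shares of 42.0% and 40.2% take both directions together, and shares by direction were not computed for these comparisons. The members' counts by direction therefore have no matching background here, and an excess of falls cannot be read from them. PSMB9 was at 1.14 in Knockdown-670 and 0.74 in Knockdown-732 on the log2 scale. In the same order PSME1 was at 0.67 and 0.50, PSME2 at 0.43 and 0.43, and PSMB8 at 0.44 and 0.31. PSMD6 was at -0.52 and -0.80 and PSMD1 at -0.57 and -0.42 in the same order of libraries. Other members differed between the libraries: PSMA6 was at 0.33 (called) and 0.09 (not called) and PSMD8 at 0.25 (called) and -0.02 (not called), and the uncalled PSMG4 was at -0.17 and 0.43 and PSMC1 at 0.12 and -0.20. The difference between the knockdown libraries was not tested.

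The genes that act with the proteasome were read from lists chosen with earlier results of these data known. The count for each list stands beside 23.5% of all 16120 genes tested that rose and 22.8% that fell. Of 6 tested regulators on the interferon side, 5 rose and IRF2 fell (log2 -0.79); the median was 0.93. STAT2, part of the factor that binds the response element, had 124 and 122 CPM in the knockdown, against 29.3 and 32.6 CPM in the controls (log2 1.99). NLRC5, the transactivator of MHC class I genes, rose by 2.39 and IRF9 by 1.18 on the log2 scale. IRF1, named after its values were seen because it is known to drive PSMB9, had 149 and 141 CPM in the knockdown, against 97.3 and 98.3 CPM in the controls (log2 0.57, edgeR adjusted p = 3.46e-06).

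Of 15 genes of class I peptide supply, which bring proteasome products to the cell surface, 12 rose and none fell. Among all genes tested, 23.5% rose and 22.8% fell. The median of the 15 was 0.80 on the log2 scale. TAP1, the peptide transporter whose start faces that of PSMB9, had 178 and 162 CPM in the knockdown, against 78.5 and 79.96 CPM in the controls, a fold of 2.15 (edgeR adjusted p = 1.15e-09) beside 1.93 for PSMB9. HLA-B rose by 1.78, HLA-C by 1.31 and HLA-E by 0.86 on the log2 scale; class I genes are close copies, so reads could be split between them. The 3 tested inducible subunits had a median of 0.38.

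Of 14 proteasome-associated factors 6 fell and ZFAND2A rose (log2 0.51), beside 22.8% of all genes tested that fell and 23.5% that rose. The median of the 14 was -0.27. The deubiquitinase USP14, bound to the base, had 74.6 and 76.3 CPM in the knockdown, against 108 and 107 CPM in the controls (log2 -0.51, edgeR adjusted p = 1.51e-05). The deubiquitinase UCHL5 fell by 0.65, the ubiquitin ligase adaptor FBXO7, which binds PSMF1, by 0.52 and ZFAND5, which stimulates the particle, by 0.39 on the log2 scale. POMP, the chaperone needed to complete the core and named after its values were seen, was not called (log2 -0.06, edgeR adjusted p = 0.703), and with the correction for GC content and length it was higher (0.50, edgeR adjusted p = 0.00119).

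Shuttle and extraction factors carry tagged proteins to the particle, and 8 of 12 fell and 1 rose. Among all genes tested, 22.8% fell and 23.5% rose. The median of the 12 was -0.32 on the log2 scale. Against a 1.2-fold change 2 of the 12 were lower and 0 higher, beside 13.8% and 15.2% of all genes. DESeq2 called 7 lower and 1 higher, beside 16.1% and 16.9% of all genes. RAD23B stood out, with 72.0 and 82.4 CPM in the knockdown, against 222 and 223 CPM in the controls (log2 -1.52, SE 0.08, edgeR adjusted p = 2.18e-11). The ubiquilins UBQLN1 and UBQLN4 fell by 0.41 and 0.39 on the log2 scale, and NPLOC4, a cofactor of the extraction ATPase, rose by 0.31. With the correction for GC content and length NPLOC4 (0.07), UBQLN1 (-0.08) and FBXO7 (-0.11) were not called.

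NFE2L1 is the transcription factor that raises proteasome genes when the particle is inhibited. It had 692 and 664 CPM in the knockdown, against 541 and 563 CPM in the controls (log2 0.30, edgeR adjusted p = 0.00137; 0.02 and not called with the GC and length correction). Of the 8 genes of its control, 3 rose and 2 fell, beside 23.5% and 22.8% of all genes tested. SYVN1, the ligase that keeps NFE2L1 low, rose by 0.89 and its partner factor MAFG by 0.38 on the log2 scale, and DDI2, the protease that activates it and is also counted with the shuttle factors, fell by 0.38. NGLY1, the glycanase that acts on NFE2L1, fell by 0.26. The core antioxidant response element to which NFE2L1 binds was searched as TGACNNNGC on both strands. It was in the windows of 15 of 42 proteasome genes (35.7%), against 16.1% of all genes in the table. Of the 15, all tested, 4 were higher, 9 lower and 2 not called. Of 25 tested genes without it, 3 were higher, 10 lower and 12 not called. The interferon-gamma activated site, searched as TTCNNNGAA, was in 8 of the 42 (19%), against 9.38% of all genes. Of the 7 tested among the 8, 1 was higher, 4 lower and 2 not called. Of 33 tested genes without this site, 6 were higher, 15 lower and 12 not called. Among all genes tested, 23.5% were higher and 22.8% lower, and a link between these motifs and the calls was not tested.

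Ubiquitin genes and activating enzymes rose in 4 of 7 cases and none fell, beside 23.5% of all genes tested that rose and 22.8% that fell. UBA1, the ubiquitin-activating enzyme, rose by 0.19 on the log2 scale (edgeR adjusted p = 0.0355). Against both controls UBA1 was at 0.28 in Knockdown-670 and 0.11 in Knockdown-732, and the GC and length correction turned its sign. UBA7, which activates the ubiquitin-like protein ISG15, rose by 2.41 and had 7.22 and 5.12 CPM in the knockdown, against 0.850 and 1.44 CPM in the controls.

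**Figure D5:**
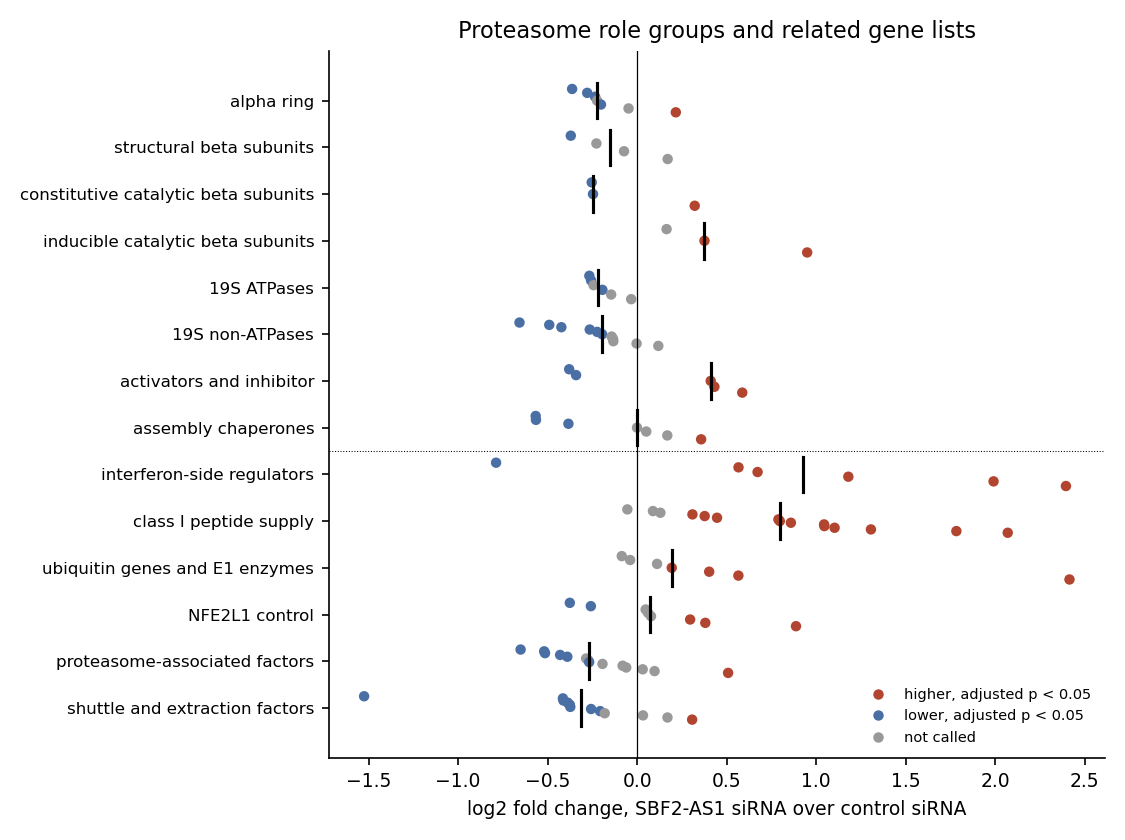
Log2 fold changes of the tested genes of each proteasome role group (above the dotted line) and of 6 related lists (below it); each point is a gene, black bars are medians and colours give the call. Interferon-side regulators and class I genes reach values above 1.5, where the inducible subunits reach 0.95, and shuttle factors and associated factors lie mostly below 0.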

How the data were processed

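The authors deposited raw counts for each gene symbol in 4 libraries. The build is GRCh37 per the submitters' processing notes; aligner, counting program, annotation and strand setting are not stated there. Members and gene lists were chosen with earlier results of these data known. The counts were analysed in R 4.3.3 with edgeR 4.0.16: filterByExpr, TMM scaling, a robust quasi-likelihood fit of knockdown against control, and Benjamini-Hochberg adjustment at 0.05 over all 16120 genes tested. SE was taken as the absolute log2 fold change over the square root of F. Replicates differed by more than counting noise, with a chi-square per gene of 3.61 in the knockdown and 3.95 in the controls. The number of count columns left without a sample was 0. The scripts were tested on simulated data.

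The genes named were the target, the catalytic and activator pairs, the called members with the 3 largest rises and falls in each role, and up to 4 called genes of smallest p in each related list. The other members were named to account for all of them; IRF1, IRF2, POMP, LCP1, CD14, ITGAM, ZFAND2A, NGLY1 and the epithelial markers were named after their values were seen. PSMB8-AS1 was not used here. Some genes of the related lists are counted but not reported here by name. Merged exon length and the GC content of the longest transcript came from GENCODE on GRCh38, joined by symbol (28572 directly, 1288 by synonym, 10345 unmatched); 48 of 48 proteasome genes had values. Promoters are RefSeq's, and the motif search was added with the members' values known. Alternatives were DESeq2 1.42.0 size factors, library size only, no filter, the DESeq2 test, limma-voom (limma 3.58.1), glmTreat against 1.2-fold, each library left out, a GC and length correction (splines fitted in each library on expressed genes and used as offsets for 14700 genes), and pair ratios without division by length. Summing members with their pseudogenes was added after seeing the data.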

Additional observations from a re-analysis of the deposited data

How the results depend on the processing

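In the alternatives run, PSMB9, PSME1, PSME2, PSMF1, PSMD1, PSMD5, PSMG1 and PSMC3IP kept both direction and call. The log2 difference of the pair ratios with 1 library left out was 0.60 to 0.66 for PSMB8 to PSMB5, 1.05 to 1.36 for PSMB9 to PSMB6 and -0.27 to -0.057 for PSMB10 to PSMB7; omitting the division by length cannot change these differences. Against a 1.2-fold change the number of genes called was 4680 (genes called, higher, 2451; genes called, lower, 2229); of the members 10 were called, 4 higher and 6 lower, and of the related lists 27, of which 8 lower. DESeq2 called 5 members higher (10.2%, against 16.9% of all genes). Leaving out 1 library gave a median log2 fold change of -0.26 to -0.13 for the proteasome genes tested. Over all genes tested the median was -0.016 to 0.0076. Counts of members called in these fits have no matching share of all genes here, so an excess cannot be read from them. With 1 library left out, where the lone sample is assumed to vary like the others, 5 to 9 members were higher. The GC and length correction gave the opposite sign for PSMA2 (0.14), PSMA3 (0.29), PSMA5 (0.10), PSMB1 (0.17), PSMB4 (0.064), PSMC2 (0.087), PSMC6 (0.17), PSMD12 (0.023), PSMD14 (0.18), PSMG4 (-0.060), PSMD12P (0.33), UBA1 (-0.10) and POMP (0.50), all on the log2 scale; of these, PSMA3, PSMD14 and POMP were called. With library size only PSMD10 was at -0.012. Leaving out single libraries turned the sign of genes that were not called with all libraries. The ranges were -0.29 to 0.27 for PSMC1, -0.088 to 0.077 for PSMD3 and -0.023 to 0.24 for PSMD8. PSMD8 was at its upper end, and called, without Knockdown-732. The others were -0.043 to 0.029 for PSMG3, -0.18 to 0.43 for PSMG4, -0.33 to 0.060 for PSMD12P and -0.16 to 0.021 for POMP. The cause was not tested. No paired analysis was possible because the groups share no replicate numbers. With 2 libraries a group, no library could be tested for standing apart, and PSMB11 and PSMA8 lay at or below the limit that 3 counts set.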
